A study of Mus musculus with 32 samples.

Results

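Isg15, Usp18, Rsad2, Mx1, Mx2, Bst2, Cmpk2, Xaf1, Rtp4 and Zbp1 are antiviral genes that type I interferon switches on. They were taken by symbol from a table of 20560 genes, and all 10 were present. They were followed through fat cell differentiation of 3T3-L1 cells, an established clonal mouse preadipocyte line, with and without knockdown of Zbtb9, which encodes a BTB and zinc finger protein. The text gives the level of each gene in the libraries, its course in control cells, and its change with each of 2 short hairpin RNAs (shRNAs).

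There were 32 RNA sequencing libraries, 8 at each of days 0, 3, 7 and 11. On each day, 4 libraries came from cells with a scramble control hairpin (labelled wild type), 2 from cells with shRNA 1 and 2 from cells with shRNA 2 (both labelled Zbtb9 knockdown). All libraries are labelled as adipogenic differentiation, and the labels do not say whether day 0 RNA was taken before the inducers were added. Dexamethasone, isobutylmethylxanthine and insulin were added at day 0, when the cells had been confluent for days. Insulin alone was given from day 3, and plain culture medium from day 7. The labels call the replicates biological and do not say whether they came from separate cultures or infections, so p-values measure the spread between these libraries. They also do not say whether a hairpin line is 1 clone or a pool.

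Type I interferons bind the receptor IFNAR1/IFNAR2 on the cell surface. The kinases JAK1 and TYK2 then start a signal that leads, through a complex that contains IRF9, to interferon-stimulated response elements in front of target genes. The products of these targets block viral entry, replication or release, and some, such as USP18, switch the receptor signal off again. Fibroblast-like cells, 3T3-L1 preadipocytes among them, can both make and answer type I interferon.

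The genes fall into 4 groups by role. ISG15 is a ubiquitin-like protein that is attached to other proteins, and USP18 is the protease that removes it and also blocks signalling at IFNAR2. RSAD2 (viperin) turns CTP into a chain terminator of viral RNA synthesis, and CMPK2 is a nucleotide kinase. MX1 and MX2 are dynamin-like GTPases that act on incoming viral ribonucleoproteins, and BST2 (tetherin) holds budding virions on the cell membrane. XAF1 is a cell death promoting antagonist of XIAP, RTP4 is a receptor chaperone that also restricts viruses, and ZBP1 is a sensor of Z-form nucleic acid.

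The positions that follow are from the GENCODE M21 annotation of GRCm38, matched by Ensembl identifier. Isg15 (ENSMUSG00000035692) lies on chromosome 4 from 156199424 to 156200818, minus strand, and Usp18 (ENSMUSG00000030107) on chromosome 6 from 121245906 to 121270917, plus strand. Rsad2 (ENSMUSG00000020641) on the minus strand of chromosome 12, from 26442746 to 26456452, and Cmpk2 (ENSMUSG00000020638) on the plus strand, from 26469204 to 26479837, point away from each other across 12751 bases. Mx1 (ENSMUSG00000000386) on the minus strand of chromosome 16, from 97447035 to 97462907, and Mx2 (ENSMUSG00000023341) on the plus strand, from 97535308 to 97560900, are 72400 bases apart. Bst2 (ENSMUSG00000046718) is on chromosome 8 from 71534255 to 71537456, minus strand, Xaf1 (ENSMUSG00000040483) on chromosome 11 from 72301629 to 72313733, plus strand, Rtp4 (ENSMUSG00000033355) on chromosome 16 from 23520291 to 23614222, plus strand, and Zbp1 (ENSMUSG00000027514) on chromosome 2 from 173206612 to 173218923, minus strand. Mx2 is annotated as a polymorphic pseudogene, and the other 9 as protein coding. Reads of a few of them could be shared with other genes. Mx1 and Mx2 align over 920 bases at 94.8% identity, Isg15 and the transcript AC151275.1 over 482 bases at 95.2%, and 13.9% of the exon bases of Rtp4 are also exon of Gm45338 on the same strand.

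Interferon-stimulated response elements carry GAAA, any 2 bases and GAAA again, and this pattern was searched on both strands. Promoter windows (250 bases before to 50 after the start, RefSeq, GRCm38.p6) were at hand for 5 of the 10 genes, Isg15, Rsad2, Bst2, Cmpk2 and Xaf1. The pattern was present in 3 of these 5 and in 3.44% of all 32851 windows. The stretches around the matches are shown because they are where the 3 genes share a sequence feature. Each is given 5′ to 3′ in the direction of the gene, with every base of a match in capitals. They are chr4:156200850-156200921 (Isg15), chr8:71537562-71537627 (Bst2) and chr12:26456538-26456597 (Rsad2), all on the minus strand.
Isg15: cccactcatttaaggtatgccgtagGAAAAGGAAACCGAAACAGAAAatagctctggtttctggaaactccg
Bst2: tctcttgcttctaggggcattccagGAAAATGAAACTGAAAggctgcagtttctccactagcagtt
Rsad2: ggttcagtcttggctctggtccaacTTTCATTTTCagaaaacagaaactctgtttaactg
Isg15 held 3 overlapping matches that ran from base -78 to base -57, counted from the transcription start. Bst2 held 2 overlapping matches from -130 to -115, and Rsad2 had 1 on the opposite strand, from -120 to -111. No match in the Cmpk2 and Xaf1 windows says only that the pattern is not there. Another pattern, TTC, any 3 bases and GAA (the gamma-activated site), was searched as well. It was in 1 of the 5 windows, that of Bst2 from -136 to -128, and in 8.3% of all windows. Capitals do not mark it. Binding was not measured.

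The libraries held 22280352 to 31073729 reads in genes. It overlapped between arms at days 0, 3 and 7. At day 11 control libraries held 26486057 to 31073729 reads and knockdown libraries 22839491 to 25511851. Zbtb9 (chromosome 17, 26973167 to 27008376) had few reads, and 84.4% of its exon bases are also exon of Ggnbp1 on the same strand. Its knockdown mean was 61.9% of control at day 0, then 50.6%, 42.7% and 54.5% on the later days. The adipocyte markers Adipoq, Plin1, Fabp4, Cidec, Cfd and Lep together had 63.1 to 102 normalized reads (reads over a size factor for each library) at day 0 and 66900 to 101100 in knockdown at day 7, so the cells labelled as differentiating carried fat cell markers. Lep stayed at 0 to 5 reads in every library. Of the 6 macrophage markers in the table, Ptprc had 0 to 3 reads, Itgam 0 to 8 and Csf1r 1 to 40 in any library, whereas Lyz2 had 2 to 205, Cd68 9 to 506 and Cd14 256 to 711, and the 5 endothelial markers summed to at most 100.1 normalized reads.

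In control cells all 10 genes were lowest at day 3 and returned by day 7 to near their day 0 level, except Zbp1, which stayed below it. Bst2 and Isg15 kept 443 to 493 and 114 to 141 normalized reads at day 3, and the other 8 had at most 45.7. They fell by 14.6-fold (Bst2) to 95.5-fold (Mx1) from day 0 to day 3, with a median of 52.6-fold in normalized reads. Between days 3 and 7 they rose 12.9-fold (Bst2) to 90.2-fold (Mx1). Both Mx1 folds rest on day 3 control values of 4.21, 3.17, 12.6 and 2.13 normalized reads. Replicate 3, the highest of these, holds both folds down, so their size is uncertain. On the log2 scale of the deposited values, limma called all 10 lower at day 3 than at day 0, by -4.93 (Usp18) to -2.58 (Rsad2), and all 10 higher at day 7 than at day 3, by 2.74 (Rsad2) to 4.99 (Usp18). The word called marks a Benjamini-Hochberg adjusted p, over all genes tested, under 0.05. By that rule 38.2% of all genes were called lower in the first step and 37.6% higher in the second. Rescaling to equal totals moved the median change of all genes from day 0 to day 3 from 0.00 to -0.12 and ended none of these calls. The preadipocyte markers Pdgfra, Pdgfrb, Dlk1, Col1a1, Col3a1 and Thy1 had control sums of 362300 to 378000 normalized reads at day 0, 141000 to 158700 at day 3, 254700 to 279400 at day 7 and 302300 to 347400 at day 11. The sum had this course but not each marker, since Thy1 was called higher at day 3 than at day 0 (0.72), and Thy1 (-0.11) and Col3a1 (-0.12) were called lower at day 7 than at day 3. The adipocyte sums were 83.0 to 102, 5534 to 7042, 21690 to 24880 and 10850 to 14360 on the same days. The endothelial sums were 62.3 to 77.9, 10.5 to 39.8, 35.4 to 53.1 and 79.9 to 100.1, and the macrophage sums 725 to 815, 663 to 739, 504 to 537 and 720 to 831. Their part in the course was not tested.

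**Figure D1:**
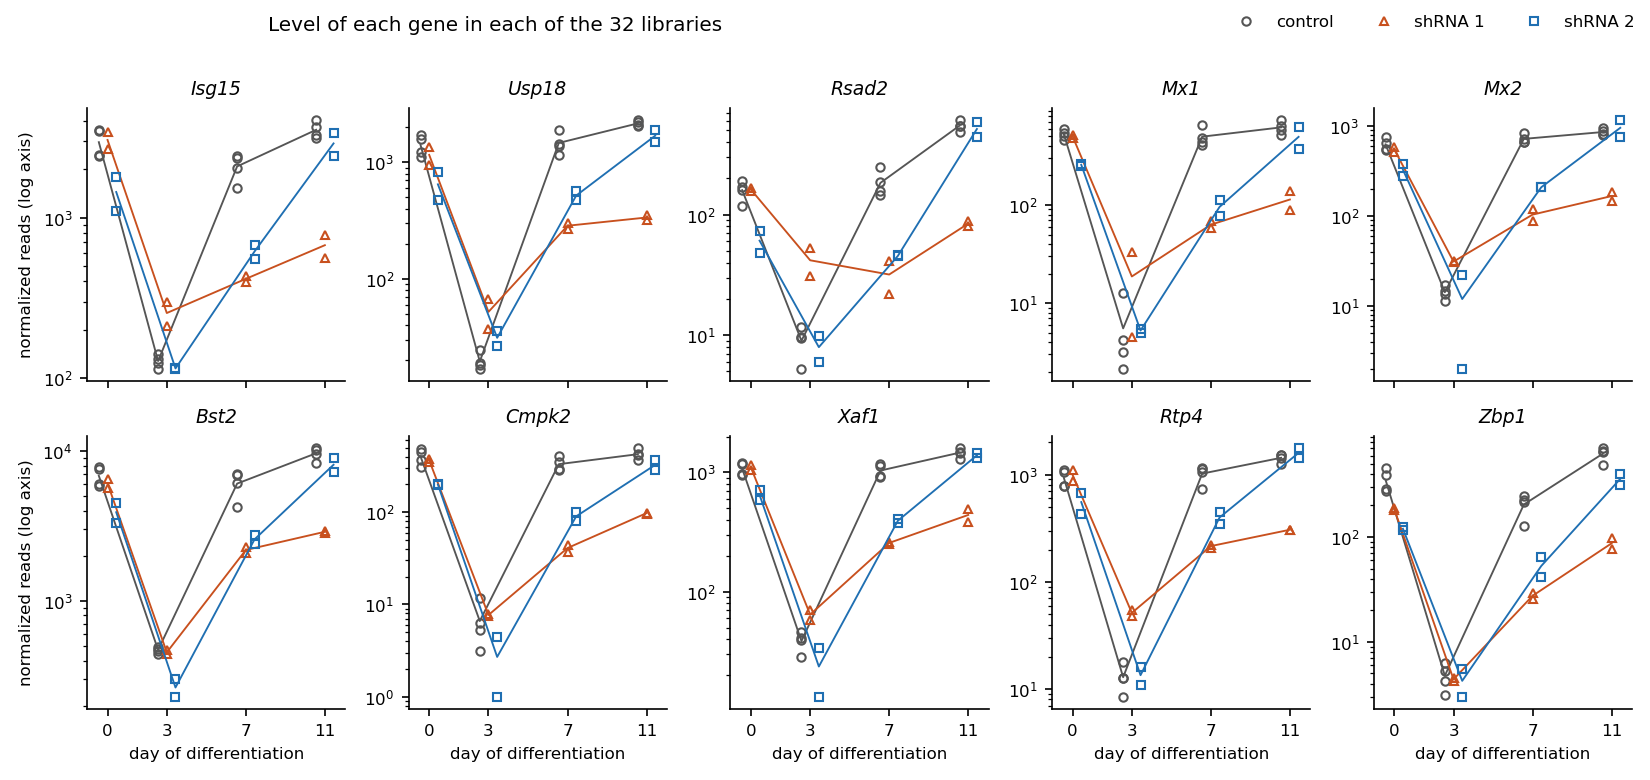
Normalized reads (log axis) of each of the 10 genes in all 32 libraries against the day of differentiation; points are single libraries, lines join group means, and groups are set side by side around each day. In control, every gene has its lowest values at day 3, and at day 7 all 4 knockdown libraries lie below all 4 control libraries for each gene.

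Bst2 gave the most reads per length of transcript at each day. Its control mean was 7584 normalized reads per kilobase of exon on day 0, fell to 520.8 on day 3, and was 6729 on day 7 and 10730 on day 11. Isg15 came next on each day, with 3893, 169, 2750 and 4648 per kilobase. The order below them was Usp18, Rtp4, Xaf1, Mx2 at days 0, 7 and 11. Rsad2, Cmpk2, Mx1 and Zbp1 were lowest, at 36.8 to 139 per kilobase at day 0, and they changed places between days. The 10 genes together took 621 of every 1000000 reads in control at day 0 (range 530 to 715, n = 4). Their share was 26.4 by day 3 (25.2 to 27.1), 526 on day 7 (403 to 608) and 838 on day 11 (759 to 906).

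From day 7 to day 11 in control, limma called all 10 genes higher, as it did 28.9% of all genes. Rsad2 rose by 1.42 (SE 0.127, adjusted p = 1.96e-11) and Zbp1 by 1.47 (SE 0.162, adjusted p = 1.22e-07), and in normalized reads these were 2.98-fold and 3.06-fold. Mx2 rose by 0.24 (adjusted p = 0.023), Mx1 by 0.30 (adjusted p = 0.0395) and Cmpk2 by 0.33 (adjusted p = 0.0204), and the day 7 and day 11 libraries of these 3 overlapped. The calls of these 3 were each lost on leaving out any of 3 or more single libraries, with adjusted p up to 0.145 for Mx1, 0.0897 for Mx2 and 0.0871 for Cmpk2 (for Mx1 control replicates 1, 2 and 4 of day 7 and 1 and 3 of day 11, for Mx2 and Cmpk2 replicates 2 and 4 of day 7 and 2 of day 11). Without a filter on low values Mx1 was not called either. The other 5 rose by 0.48 to 0.74. Day 7 libraries overlapped those of day 0 for 9 genes. Those of Zbp1 lay below, at 204 ± 51.7 normalized reads against 351 ± 86.2 at day 0 (SD, n = 4). How many of all genes lay below in this way was not counted, and day 7 was not tested against day 0.

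Knockdown lowered all 10 genes at day 7. Each of the 4 knockdown libraries was below each of the 4 control libraries for 10 of 10 genes, which was so for 20.9% of all genes tested. Limma called 10 of 10 lower, as it did 22.6% of all genes, with changes from -2.33 (Mx1) to -1.28 (Bst2) on the log2 scale. The median was -1.84, beside 0.01 over all genes tested. In normalized reads, the knockdown means were 15.9% (Mx1) to 39.2% (Bst2) of control. All 10 stayed called when any single library was left out and under every other setting tried. In bulk RNA, fewer cells that express a gene and less RNA per cell cannot be told apart. The adipocyte markers summed to 66900 to 101100 normalized reads in knockdown and 21690 to 24880 in control at day 7, without overlap and with none of the 6 at 0 throughout. The macrophage markers in the table (6 of 8) summed to 357 to 505 and 504 to 537, with Itgam at 0 in all knockdown libraries. The preadipocyte markers summed to 200100 to 231600 in knockdown and 254700 to 279400 in control. The part of cell state in the result was not tested.

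Of the ISG15 pair, Isg15 had 2342, 1523, 2415 and 2037 normalized reads in control at day 7, 398 and 433 with shRNA 1, and 679 and 550 with shRNA 2. The lowest control library was above the highest knockdown library. The change was -1.93 (SE 0.196, adjusted p = 9.67e-05). Usp18 had 1447, 1156, 1878 and 1381 in control, 301 and 269 with shRNA 1, and 563 and 472 with shRNA 2. Both libraries of shRNA 2 were above both of shRNA 1 for each of the 2 genes, as for every other gene of the 10 at day 7. How many of all genes split in this way was not counted. The Usp18 change was -1.81 (SE 0.251, adjusted p = 0.000742).

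The neighbours Rsad2 and Cmpk2 fell as well. Rsad2, the rarest of the 10 per kilobase at day 7, had 145, 187, 248 and 156 normalized reads in control, 41.6 and 22.0 with shRNA 1, and 45.1 and 45.8 with shRNA 2. Its change was -1.76 (SE 0.165, adjusted p = 6.59e-07). Cmpk2 had 347, 287, 403 and 291 in control, 44.7 and 37.1 with shRNA 1, and 99.7 and 80.9 with shRNA 2. Its change with both hairpins in 1 group was -2.04 (SE 0.214, adjusted p = 1.26e-05).

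In the group of Mx1, Mx2 and Bst2, Mx1 had 439, 488, 654 and 410 normalized reads in control, 68.0 and 58.0 with shRNA 1, and 113 and 77.9 with shRNA 2. Its change of -2.33 (SE 0.165, adjusted p = 1.22e-07) was the largest estimate of the 10. Mx2, with which Mx1 shares sequence, had 717, 675, 841 and 660 in control, 119 and 89.3 with shRNA 1, and 209 and 210 with shRNA 2, a change of -2.08 (SE 0.235, adjusted p = 0.000104). Bst2, the most abundant, had 6907, 4210, 7043 and 6144 in control, 2277 and 2100 with shRNA 1, and 2742 and 2410 with shRNA 2. It kept the largest share of its control level, and its change was -1.28 (SE 0.165, adjusted p = 0.000368).

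The last group behaved in the same direction. Xaf1 had 1132, 910, 1179 and 930 normalized reads in control, 251 and 262 with shRNA 1, and 408 and 379 with shRNA 2 (change -1.59, SE 0.15, adjusted p = 7e-06). Rtp4 had 1143, 738, 1138 and 1066 in control, 208 and 223 with shRNA 1, and 452 and 344 with shRNA 2 (change -1.67, SE 0.255, adjusted p = 0.00107). Zbp1 had 227, 129, 245 and 217 in control, 29.4 and 25.5 with shRNA 1, and 64.0 and 41.9 with shRNA 2 (change -1.89, SE 0.209, adjusted p = 1.12e-05). Control replicate 2 was the lowest control library for all 3, and it still lay above every knockdown library.

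Each shRNA was also compared with control on its own. The comparisons of the 2 shRNAs share the control libraries, so they are not independent of each other. At day 7, shRNA 1 lowered 10 of 10 genes (24.3% of all genes called lower) with a median change of -2.18, and shRNA 2 lowered 10 of 10 (22.0% called lower) with a median of -1.59. Both libraries lay below every control library for all 10 genes with shRNA 1 (29.8% of all genes) and with shRNA 2 (27.8%). Against each other, limma called 5 genes higher with shRNA 2 than with shRNA 1, Usp18, Mx2, Cmpk2, Xaf1 and Rtp4, by 0.57 to 0.88 (7.52% of all genes called higher). The estimates of the other 5 were also above 0, at 0.22 to 0.59, with adjusted p of 0.0635 to 0.648. The count of 5 fell to 3 without shRNA 1 replicate 1, shRNA 1 replicate 2 or shRNA 2 replicate 1, and was 8 without control replicate 2. The adipocyte markers summed to 98440 to 101100 with shRNA 1 and 66900 to 83320 with shRNA 2. Their part in the difference was not tested.

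**Figure D2:**
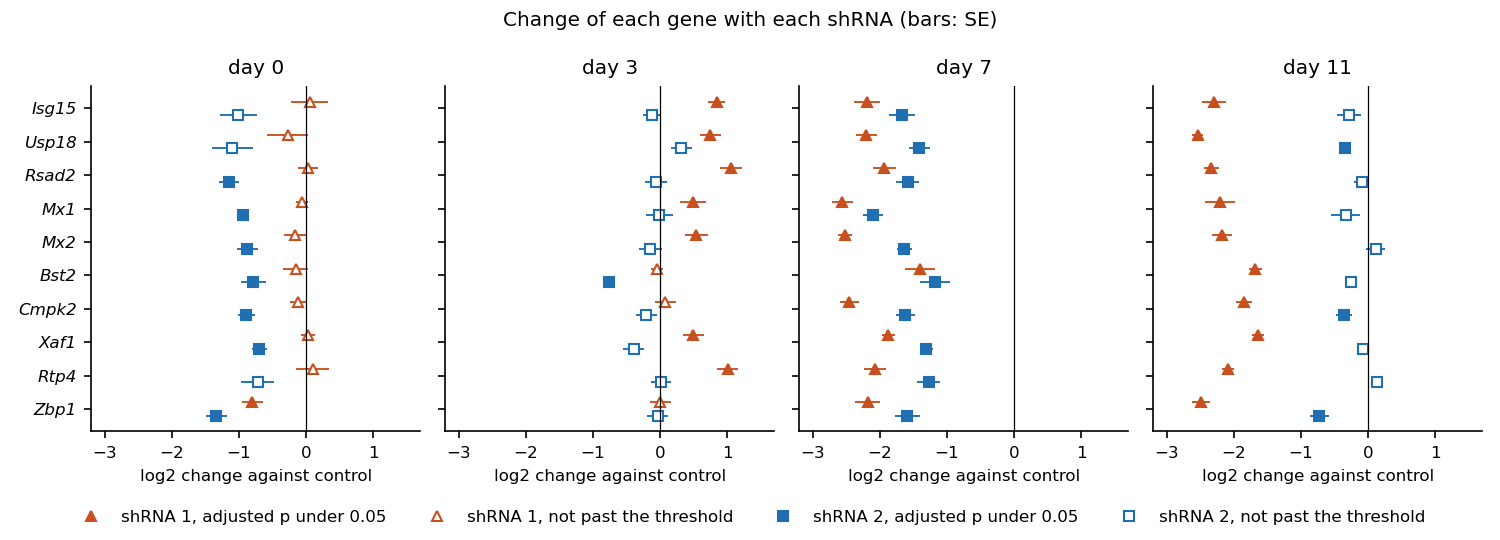
Log2 change of each gene against the 4 control libraries of the day for shRNA 1 and shRNA 2 (2 libraries each), with bars for 1 SE; filled symbols mark an adjusted p under 0.05. Both shRNAs sit left of 0 at day 7 for all 10 genes, whereas at day 0 shRNA 2 and at day 11 shRNA 1 lie furthest left.

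At day 11 the shRNAs parted. All 10 genes were low with shRNA 1, and with shRNA 2 most overlapped control. Limma called 10 of 10 lower with shRNA 1 (22.2% of all genes called lower), by -2.54 (Usp18) to -1.64 (Xaf1), at 13.9% to 30.1% of the control mean, and both libraries lay below all control libraries for 10 of 10 genes (29.1% of all genes). With shRNA 2 the means were 57.5% (Zbp1) to 111% (Mx2) of control, and 3 genes were called lower (19.4% of all genes called lower). These were Zbp1 by -0.72 (SE 0.136, adjusted p = 0.000586), Cmpk2 by -0.35 (SE 0.121, adjusted p = 0.0302) and Usp18 by -0.34 (SE 0.082, adjusted p = 0.00348). The count was 5 without shRNA 2 replicate 1. Without shRNA 2 replicate 2 it was 3, of which 2 were higher. The test of the difference itself called 10 of 10 genes higher with shRNA 2 than with shRNA 1 (11.6% of all genes called higher), by 1.43 (Bst2) to 2.29 (Mx2), and it called 10 when any single library was left out.

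The levels at day 11 show this split. Isg15 had 3641, 4024, 3134 and 3255 normalized reads in control, 562 and 784 with shRNA 1, and 3365 and 2416 with shRNA 2. Mx2 had 878, 946, 823 and 802 in control, 147 and 187 with shRNA 1, and 1163 and 757 with shRNA 2. One shRNA 2 library of Mx2 was above and the other below all controls. Rtp4 had 1520, 1535, 1259 and 1419 in control, 306 and 305 with shRNA 1, and 1768 and 1416 with shRNA 2. Zbp1 had 656, 707, 490 and 645 in control, 76.6 and 97.7 with shRNA 1, and 404 and 315 with shRNA 2, so its knockdown libraries lay below control with both hairpins. That held for Usp18 as well, with 2040 to 2291 in control, 320 to 352 with shRNA 1 and 1491 to 1893 with shRNA 2. These were the 2 genes of 10 with shRNA 2 below every control library, beside 28.3% of all genes, and with both hairpins below (17.3% of all genes).

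Zbtb9 itself, measured by few reads, had its lower mean at day 11 with shRNA 2, the hairpin with the higher levels of the 10 genes. It had 17.9, 12.1, 19.96 and 12.1 normalized reads in control, 8.17 and 19.3 with shRNA 1, and 2.13 and 4.25 with shRNA 2. The shRNA 1 mean was 88.5% of control and its libraries overlapped the controls, and the shRNA 2 mean was 20.6%, below all controls. By limma the Zbtb9 change was -0.08 with shRNA 1 (adjusted p = 0.734) and -0.49 with shRNA 2 (adjusted p = 0.0228), and between the hairpins it did not pass (adjusted p = 0.12). The adipocyte markers summed to 41480 to 50390 with shRNA 1 and 46940 to 54430 with shRNA 2, which overlap, against 10850 to 14360 in control. The macrophage markers summed to 902 to 1058 in knockdown and 720 to 831 in control, and the endothelial markers to 45.7 to 74.6 and 79.9 to 100.1. The preadipocyte markers summed to 231500 to 273000 with shRNA 1, 312900 to 320600 with shRNA 2 and 302300 to 347400 in control. Their part in the split was not tested. For Zbtb9 with shRNA 1, replicate 1 (8.17) lay below all controls and replicate 2 (19.3) within their range. These few reads therefore do not show whether the knockdown label of the shRNA 1 libraries holds at day 11. Zbtb9 was not called with either hairpin at days 0 and 7 (adjusted p by limma 0.0714 to 0.543) and was not tested at day 3. Each day 11 value is given under the hairpin its library is labelled with. The preadipocyte sums were lower with shRNA 1 than with shRNA 2, without overlap, at days 0, 3 and 11, and overlapped at day 7.

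With both hairpins in 1 group, as the study's design sets the comparison, 1 gene was called at day 11, Zbp1 (-1.61, SE 0.493, adjusted p = 0.0441), where 16.2% of all genes were called lower. The other estimates ran from -1.44 (Usp18) to -0.86 (Xaf1), with SE of 0.403 to 0.652. The knockdown group then holds both the low and the near-control libraries. The Zbp1 call was lost without shRNA 1 replicate 1 or 2 or any control replicate, with adjusted p up to 0.113, and 6 genes were called without shRNA 2 replicate 1. With the hairpins as separate groups and their mean set against control, 10 were called. That fit leaves the difference between the hairpins out of its error, and the 16.2% is from the 1-group fit. With shRNA 2 alone 3 genes were called lower, and the estimates of Mx2 (0.115) and Rtp4 (0.138) were above 0. The 10 calls are thus not a result of both hairpins.

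At day 0 the hairpins differed in the opposite sense. With shRNA 2 all 10 genes were below every control library (19.6% of all genes), at 34.1% (Zbp1) to 60.1% (Xaf1) of control. Limma called 7 of 10 lower (10.2% of all genes called lower), and 6 when any single library was left out. The 7 were Rsad2, Mx1, Mx2, Bst2, Cmpk2, Xaf1 and Zbp1, by -1.34 to -0.69. Isg15 (-1.01, adjusted p = 0.0654), Usp18 (-1.10, adjusted p = 0.07) and Rtp4 (-0.72, adjusted p = 0.121) did not pass. With shRNA 1 only Zbp1 was called (-0.80, SE 0.152, adjusted p = 0.000653; 18.9% of all genes called lower). It lay below every control library, as 26.4% of all genes did, and the other 9 overlapped the controls, at 82.0% to 107% of the control mean. Directly compared, shRNA 2 was lower than shRNA 1 for 6 called genes, Rsad2, Mx1, Mx2, Cmpk2, Xaf1 and Zbp1 (16.4% of all genes called lower), by -1.17 to -0.54.

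Mx1 shows the day 0 pattern, with 599, 500, 460 and 548 normalized reads in control, 517 and 486 with shRNA 1, and 249 and 264 with shRNA 2. Rsad2 had 191, 170, 118 and 159 in control, 166 and 157 with shRNA 1, and 48.3 and 73.3 with shRNA 2. Zbp1 had 454, 284, 276 and 391 in control, 190 and 180 with shRNA 1, and 124 and 116 with shRNA 2. Zbp1 alone of the 10 was below all controls with both hairpins at day 0, beside 7.98% of all genes. With the hairpins in 1 group it was the 1 gene called (-1.07, SE 0.182, adjusted p = 0.0145; 2.44% of all genes called lower), and without control replicate 4 its adjusted p was 0.0567. With the hairpins as separate groups and their mean set against control, 6 genes were called. That fit leaves the difference between the hairpins out of its error, and the 2.44% is from the 1-group fit. Zbtb9 was 53.8% of control with shRNA 1 and 70.0% with shRNA 2 at day 0. The adipocyte markers summed to 94.3 to 99.1 with shRNA 1, 63.1 to 73.8 with shRNA 2 and 83.0 to 102 in control. The preadipocyte markers summed to 297900 to 309900 with shRNA 1 and 338000 to 341600 with shRNA 2, both below the 362300 to 378000 of control. The endothelial markers summed to 41.6 to 45.3 and 48.3 to 51.0, below the 62.3 to 77.9 of control. The macrophage markers summed to 614 to 622 with shRNA 1, 672 to 729 with shRNA 2 and 725 to 815 in control. Their part in the day 0 differences was not tested.

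At day 3, the low point, some genes were higher with shRNA 1 than in control. Limma called 7 of 10 higher than control (20.6% of all genes called higher), with Rsad2 at 1.06 (SE 0.163, adjusted p = 2.03e-06), Rtp4 at 1.01 (SE 0.15, adjusted p = 1.18e-06) and Isg15 at 0.85 (SE 0.124, adjusted p = 9.1e-07). Usp18 (0.75), Mx2 (0.54), Xaf1 (0.50) and Mx1 (0.50) were the other 4. Bst2, Cmpk2 and Zbp1 had changes of -0.05, 0.08 and 0.01 and were not called. Cmpk2 had at most 11.6 and Zbp1 at most 6.35 normalized reads in a library at day 3, so a change of either could be missed. Both libraries of shRNA 1 were above all controls for 6 genes (27.9% of all genes), and for Mx1 only replicate 2 was. The count of 7 was 4 without shRNA 1 replicate 1. The adipocyte markers summed to 10890 to 11430 with shRNA 1, 13190 to 13760 with shRNA 2 and 5534 to 7042 in control at day 3. The preadipocyte markers summed to 135500 to 140200, 169800 to 177100 and 141000 to 158700, and the macrophage markers to 478 to 485, 567 to 633 and 663 to 739, in the same order. Their part in the result was not tested.

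Reads at day 3 were few, except for Bst2 and Isg15. Rtp4 had 17.9, 12.7, 12.6 and 8.50 normalized reads in control, 47.7 and 55.0 with shRNA 1, and 15.99 and 11.0 with shRNA 2. Isg15 had 141, 114, 132 and 124 in control, 296 and 213 with shRNA 1, and 116 and 114 with shRNA 2. Rsad2 had 9.47, 11.6, 5.23 and 9.57 in control, 30.7 and 52.9 with shRNA 1, and 5.996 and 9.88 with shRNA 2. The shRNA 2 libraries of these 3 genes were within or next to the control range. With shRNA 2, limma called only Bst2, lower by -0.76 (SE 0.089, adjusted p = 1.88e-08; 14.5% of all genes called lower), and 2 genes were called without shRNA 2 replicate 1, shRNA 2 replicate 2 or control replicate 1. Against shRNA 1, shRNA 2 was lower for 6 called genes, Isg15, Rsad2, Mx2, Bst2, Xaf1 and Rtp4 (8.94% of all genes called lower). Bst2 with shRNA 2 lay below every control library (21.6% of all genes) and Usp18 above every one (24.3%). With the hairpins in 1 group, Usp18 alone was called (0.53, SE 0.155, adjusted p = 0.0194; 14.6% of all genes called higher), and it lay above every control library with both hairpins (15.5% of all genes). With the hairpins as separate groups, which leaves the difference between them out of the error, 5 genes were called. With 1 fit of all libraries, no filter on low values or a stricter filter 0 were. The 14.6% is not from these fits. Under the settings used throughout, the count was 0 without control replicate 1 or 4, 3 without shRNA 2 replicate 1, and 2 without shRNA 1 replicate 1 or shRNA 2 replicate 2.

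The change of the knockdown effect between days was tested over all 32 libraries. Against its effect at day 0, knockdown lowered 4 genes more at day 7, Mx1 (-1.83), Mx2 (-1.56), Cmpk2 (-1.54) and Xaf1 (-1.26), with adjusted p of 0.00483 to 0.0393 (13.2% of all genes called lower). The estimates of the other 6 ran from -1.45 to -0.81 (adjusted p 0.0519 to 0.163). The count was 0 with the replicate numbers of each day as blocks, and 2 to 6 when single libraries were left out. It was 2 without shRNA 1 replicate 1 or 2 of day 0 or of day 7, without control replicate 2 or 3 of day 0, or without control replicate 1 or 3 of day 7. At day 3 limma called 0 of 10 (6.57% of all genes called; 2 with an unadjusted p under 0.05), and at day 11 also 0 (23.2% called; 0 with an unadjusted p under 0.05, and 1 called without shRNA 2 replicate 1 of day 11).

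**Figure D3:**
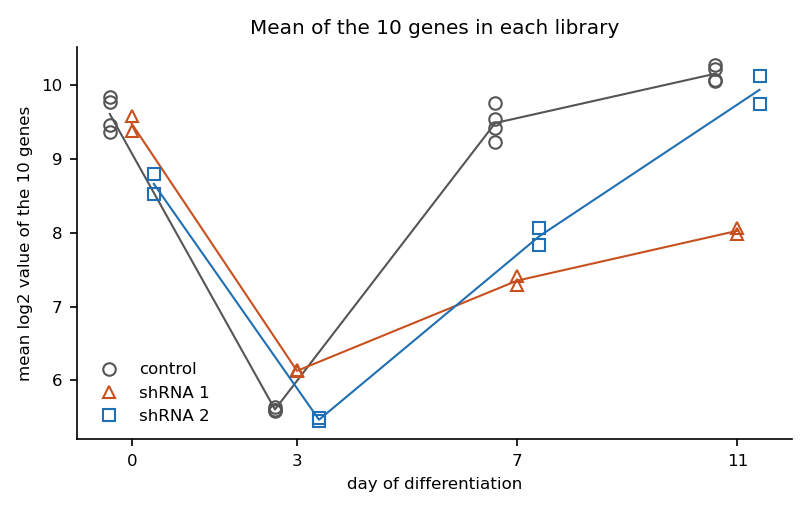
Mean deposited log2 value of the 10 genes in each library against the day of differentiation; points are libraries and lines join group means. The control mean falls from 9.61 at day 0 to 5.60 at day 3 and returns to 9.49 at day 7, when shRNA 1 is at 7.35 and shRNA 2 at 7.95.

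The mean of the 10 log2 values gives the order of the 12 groups. Control at day 11 was highest, with libraries from 10.056 to 10.277, and shRNA 2 at day 11 followed, from 9.747 to 10.129, overlapping it and the next 2 groups. Control at day 0 (9.368 to 9.840), control at day 7 (9.232 to 9.759) and shRNA 1 at day 0 (9.378 to 9.577) overlapped one another. Below them, each apart from its neighbours except for the overlap of shRNA 2 at day 7 with shRNA 1 at day 11, came shRNA 2 at day 0 (8.528 to 8.797), shRNA 1 at day 11 (7.983 to 8.071), shRNA 2 at day 7 (7.838 to 8.067) and shRNA 1 at day 7 (7.289 to 7.413). The lowest were shRNA 1 at day 3 (6.122 to 6.133), control at day 3 (5.577 to 5.643) and shRNA 2 at day 3 (5.444 to 5.486).

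The course from day 3 on differed in size between the arms. In control the genes rose a median of 46.7-fold from day 3 to day 7, with shRNA 2 16.7-fold and with shRNA 1 4.09-fold, in normalized reads. With shRNA 1, Rsad2 at day 7 was at 0.762 of its day 3 level, with overlapping libraries, and the other 9 rose. From day 7 to day 11 the median rise was 1.44-fold in control, 1.67-fold with shRNA 1 and 4.29-fold with shRNA 2. The difference of these rises between arms was not tested.

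Other genes of the interferon pathway, from lists by function, were read in the same fits. At day 7, with both hairpins in 1 group, where 22.6% of all genes were called lower, 4 of 4 enzymes of ISG15 conjugation were (median change -0.85), led by Herc6 (-0.95), its main ligase in mouse, and Trim25 (-0.93). All 4 IFIT genes, whose proteins bind viral RNA, were lower (median -2.79), with Ifit3 at -3.26 and Ifit3b at -3.01. All 6 oligoadenylate synthetases tested of 7 were lower (median -1.56), with Oasl2 at -2.44 and Oas2 at -1.81. All 8 GBP and IRG GTPases were lower (median -1.15), with Gbp3 at -1.53 and Irgm1 at -1.43. Of 9 genes of MHC class I presentation 8 were lower (median -0.63), with the peptide transporter Tap1 at -0.95 and the immunoproteasome subunit Psmb8 at -0.75.

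Among the receptor and signalling genes, Irf7 (-1.596), Stat2 (-1.47), Irf9 (-1.08) and Tyk2 (-0.25) were called lower. The receptor genes Ifnar1 (-0.05) and Ifnar2 (0.01), the kinase Jak1 (0.04), and Irf3 (0.01) and Irf1 (-0.17) were not called. Read against the same 22.6% of all genes, 7 of 9 nucleic acid sensors and adaptors were lower, with the RNA helicase genes Ddx60 at -1.85 and Dhx58 at -1.601, and the adaptor Mavs was higher by 0.26. Of 5 repressors 3 were lower, with Socs1 at -0.83 and Irf2 at -0.32. Of 8 interferon genes 2 were in the table, Ifnb1 with 0 to 9 reads per library and Ifne with 0 to 3, and neither was tested. The genes named here follow a rule given with the methods, except for the remaining signalling genes and Mavs, which were named after their values were seen.

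**Figure D4:**
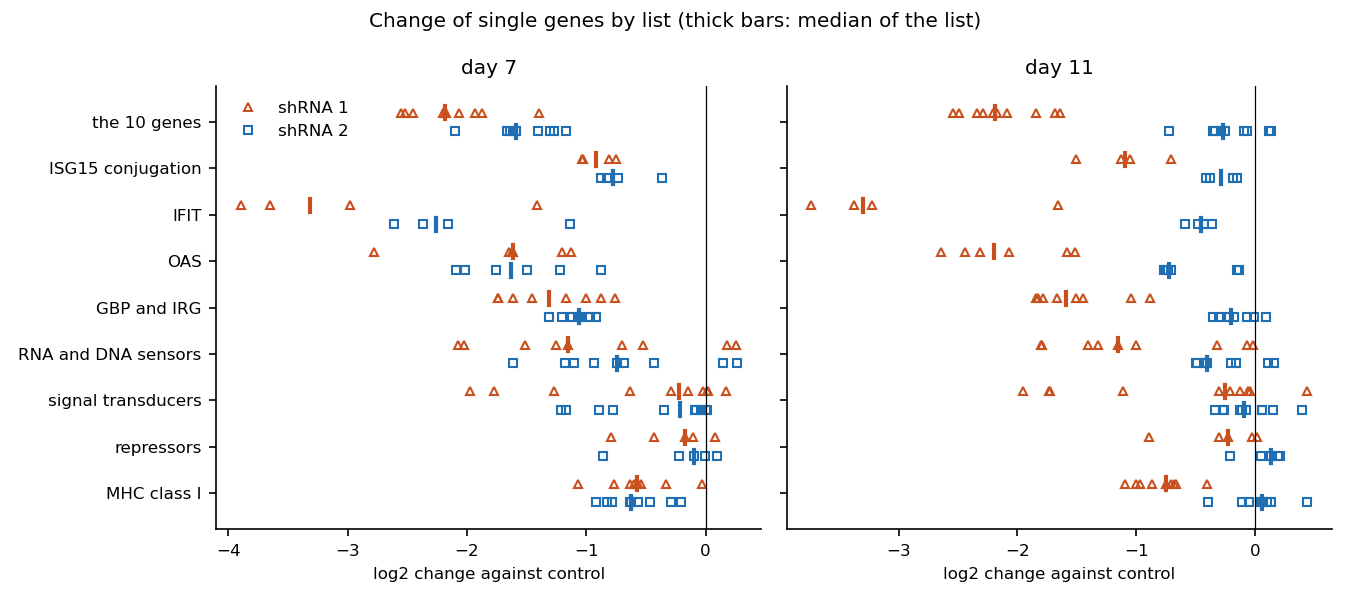
Log2 change against control of single genes in each list at day 7 and day 11, for shRNA 1 (triangles) and shRNA 2 (squares), 2 libraries each against 4; thick bars mark the list median. At day 11 the IFIT median is -3.30 with shRNA 1 and -0.46 with shRNA 2.

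At day 11 these lists differed between the hairpins. Directly compared, shRNA 2 was higher than shRNA 1 for 4 of 4, 4 of 4, 6 of 6, 8 of 8 and 8 of 9 tested genes of ISG15 conjugation, the IFIT, oligoadenylate synthetase and GTPase families and MHC class I, beside 11.6% of all genes. Against control with shRNA 1, limma called lower 4 of 4 ISG15 conjugation genes, 4 of 4 IFIT genes, 6 of 6 oligoadenylate synthetases, 8 of 8 GTPases and 9 of 9 MHC class I genes. With shRNA 2 it called lower 3, 2, 4, 3 and 1 of the same lists. Of all genes, 22.2% were called lower with shRNA 1 and 19.4% with shRNA 2, and the 1 of 9 MHC class I genes is under that share. Oasl2 had 5483 to 6970 normalized reads in control at day 11, 909 to 972 with shRNA 1 and 4976 to 6358 with shRNA 2. Irf7, a transcription factor that amplifies interferon production, had 1818 to 2324 in control, 491 to 519 with shRNA 1 and 1794 to 2212 with shRNA 2. For both, shRNA 2 libraries overlapped the controls and shRNA 1 libraries did not.

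The control course of the same lists was read as well. From day 0 to day 3 the 4 IFIT genes fell by a median of -5.65, the 6 oligoadenylate synthetases by -2.94 and the 4 ISG15 conjugation genes by -2.29, each with all tested genes called. The 8 GTPases (7 called) and 9 MHC class I genes (9 called) had medians of -3.13 and -1.80. From day 3 to day 7 the tested genes of these 5 lists were all called higher, with medians of 4.90, 3.33, 2.23, 2.88 and 2.25. Of all genes, 38.2% were called lower in the first step and 37.6% higher in the second.

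The 10 genes varied together across the 32 libraries. Their 45 pairwise Pearson correlations ran from 0.888 (Rsad2 with Bst2) to 0.994, with a median of 0.975. The adjacent Rsad2 and Cmpk2 correlated at 0.892, and Mx1 with Mx2 at 0.983. The points share day, hairpin and depth, so these values are descriptions. Of 12103 other named genes, those with the highest mean correlation with the 10 were Ifi44 (0.979), Ifit3 (0.977), Oasl2 (0.976), Ifit3b (0.976) and Irgm2 (0.975). Taken singly, the closest gene was Ddx60 for Isg15, Irf7 for Usp18, Trim30a for Mx1 and for Cmpk2, Oas1b for Mx2, Parp9 for Bst2, Oasl2 for Xaf1, Gbp3 for Rtp4 and Ifit3 for Zbp1, at 0.986 to 0.996. The closest to Rsad2 was Mpeg1 at 0.944, and Rsad2 had the lowest such value of the 10.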

How the data were processed

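Total RNA went into TruSeq RNA libraries, per the labels' protocols. TopHat2 2.1.0, Bowtie2 2.2.6, SAMtools 1.3.1 and HTSeq 0.6.1 are named in the submitters' processing notes. The genome build, annotation, strand setting and transform are not given in the sources used here. The deposited table, named as normalized counts, holds log2 values from -1.56 to 17.99. Their form is that of a regularized log, which draws rare genes towards their mean, so their log2 changes are understated. Whole reads were rebuilt by inverting that form. Of all values 97.6% came within 0.1 of a whole read (20% by chance), and the 10 genes all within 0.0199. Reads divided by size factors give the normalized reads.

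Limma 3.58.1 in R 4.3.3 was fitted to the deposited log2 values with trend and robust empirical Bayes, on genes with 2 to the power of the value of at least 10 in 4 libraries. Each day had 1 fit, the control course used 16 libraries, and the comparison between days used all 32. Adjusted p-values given are limma's. The 10 genes and the lists were chosen with earlier results of these data known. By rule, the text names the 10 genes, Zbtb9, the 2 largest called changes of each list at day 7, and the closest genes by correlation. The fit and the rebuilding were tested on simulated data. In each of 32 replicate pairs, counts differed beyond sampling noise. Alternatives were other filters, scaling, pseudocount and fits, voom on rebuilt reads, a replicate block, and leaving out single libraries. Intervals and floors were not needed, since no group of the 10 genes was at or under 3 reads throughout. One signalling gene is not reported here.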

Additional observations from a re-analysis of the deposited data

Results flagged for a closer look

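The 2 hairpins differed from each other on every day. Limma called 6 of the 10 genes at day 0 and 6 at day 3, all lower with shRNA 2 than with shRNA 1, then 5 at day 7 and 10 at day 11, all higher with shRNA 2. Of all genes, 16.4%, 8.94%, 7.52% and 11.6% were called in the same direction on these days. The difference at day 11 spanned 1.43 to 2.29 on the log2 scale. The knockdown effect at day 7 differed from that at day 0 for 4 genes by a test of the difference over all libraries, where 13.2% of all genes were called lower. That count was 2 to 6 when single libraries were left out and 0 with a replicate block. One control library stood apart from the other 3 of its group. For Rtp4 at day 7, control replicate 2, with 738 normalized reads against 1066 to 1143, left a gap of 0.838 of the group's range on the log2 scale, above Dixon's 95% limit for 4 libraries. On the scale of normalized reads the gap is under that limit. This was 1 of 40 gene and day combinations examined, and about 1 in 20 would exceed the limit by chance.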

How the results depend on the processing

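The submitters transformed the values, so changes of rare genes are understated, and day 3 levels of all but Bst2 and Isg15 rest on few reads. With 2 libraries per hairpin, single libraries decided several counts. The 10 calls for knockdown at day 7, for shRNA 1 at days 7 and 11, for shRNA 2 against shRNA 1 at day 11, and for control from day 0 to 3 and from day 3 to 7 stayed 10 under each alternative run. For single genes, 37 alternatives added a call, 26 ended one and 0 turned a called change. Uncalled changes near 0 did turn sign at day 3, those of Xaf1, Mx1, Cmpk2 and Zbp1 for knockdown against control.

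Counts of the 10 genes called moved as follows. The replicate numbers were not taken to pair the libraries, since deviations of same-numbered libraries correlated at -0.001 to 0.209 within a day and -0.094 to 0.119 between days in control, not all over 0.1. Of 12 control libraries 6 correlated best with their own number on the next day, where chance gives 3, which is a hint of pairing from the data and not from the design. With the replicate block, the knockdown counts at days 0, 3 and 11 were 0, 0 and 0, that of shRNA 1 at day 0 was 4, and that of shRNA 2 at day 11 was 5. Between the hairpins it gave 10 at day 0 and 8 at day 7, and for the knockdown effect at day 7 against day 0 it gave 0. With the hairpins as separate groups, the knockdown counts at days 0, 3 and 11 were 6, 5 and 10. That fit leaves the difference between the hairpins out of its error, and its share of all genes called is not given. One fit of all libraries gave 0 at day 3 and 9 at day 11. Without a filter on low values, knockdown at day 3 had 0 and shRNA 1 at day 3 had 4, and a stricter filter gave 0 for knockdown at day 3. At day 11, knockdown had 2 without trend and robust settings and 2 with voom on rebuilt reads. The cause was not tested.

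Leaving out single libraries, knockdown counts ran from 0 to 1 at day 0, 0 to 3 at day 3, 10 to 10 at day 7 and 0 to 6 at day 11. For shRNA 1 they were 4 to 7 at day 3, and for shRNA 2 they were 6 to 6 at day 0, 1 to 2 at day 3, 9 to 10 at day 7 and 2 to 5 at day 11. Without shRNA 2 replicate 2 of day 11, 3 were called, 2 of them higher and 1 lower. Between the hairpins the counts were 4 to 7 at day 0, 5 to 6 at day 3 and 3 to 8 at day 7. In control from day 7 to 11 they were 7 to 10. The knockdown effect against day 0 had 0 at day 3, 2 to 6 at day 7 and 0 to 1 at day 11.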
